A study of Mus musculus with 12 samples.

Results

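The IFIT, MX and OAS antiviral effectors were 10 genes, chosen by their symbols from the 57010 genes of the counts: Ifit1, Ifit2, Ifit3, Mx1, Mx2, Oas1a, Oas2, Oas3, Oasl1 and Oasl2. They were followed in 12 RNA-seq libraries of preosteoclasts, which are bone marrow cells on their way to becoming bone-resorbing osteoclasts. By the labels, marrow of female mice aged 2 months spent 2 days in culture with M-CSF and RANKL before polyA RNA was sequenced. The study's methods give this age at ligature placement and an older one for the mice of the RNA sequencing. LSD1cKO mice carried floxed Kdm1a, the gene of the histone demethylase LSD1, deleted by Cre driven from the LysM (Lyz2) locus, which is active in myeloid cells, and LSD1WT mice were the controls, with alleles not given in the sources used here. Each genotype gave 2 libraries from each of 3 cultures, which were mandible marrow of mice that had a ligature around a molar for 7 days, femur marrow of ligated mice and femur marrow of mice with no ligature. The labels name 9 mice, and 1 LSD1WT and 2 LSD1cKO ligated mice were sampled at both sites. The comparisons ask which of these genes respond to loss of LSD1, which respond least, and how the level in LSD1WT cells relates to the response at each site.

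Members of the 3 families are made when type I or type III interferon reaches its receptor and the ISGF3 complex binds interferon-stimulated response elements in their promoters. IFIT proteins bind foreign RNA, often through its uncapped or incompletely capped end, MX proteins are dynamin-like GTPases that block incoming virus, and OAS enzymes sense double-stranded RNA and make 2-5A, a second messenger of antiviral defence. Oasl1 and Oasl2 are relatives of the OAS enzymes. Oasl1 lacks the synthetase activity and is known to restrain translation of Irf7. Most laboratory mouse strains carry defective Mx1 alleles, and RefSeq lists both Mx1 and Mx2 of the reference strain as transcribed pseudogenes.

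Promoter sequences are shown to place the members beside their known regulator. RefSeq promoter windows of build GRCm38.p6, from 250 bases before to 50 bases after the start site, were matched for 7 of the 10 members (not Mx1, Mx2 or Oas2). They were searched on both strands for the core of the interferon-stimulated response element (GAAA, any 2 bases, GAAA) and of the gamma-activated site (TTC, any 3 bases, GAA). The first core was found in 4 of the 7 members, against 3.44% of 32851 windows, and matches may overlap, as both in Oas1a do. The stretches below hold every match upstream of the start site, 5′ to 3′ on the gene's strand and with the core in capitals. They lie at chr19:34640770-34640828 (plus strand) for Ifit1, chr19:34583358-34583431 (plus strand) for Ifit3, chr5:120907526-120907560 (minus strand) for Oas1a and chr5:120777710-120777749 (minus strand) for Oas3.
Ifit1: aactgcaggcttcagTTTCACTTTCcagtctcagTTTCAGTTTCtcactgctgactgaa
Ifit3: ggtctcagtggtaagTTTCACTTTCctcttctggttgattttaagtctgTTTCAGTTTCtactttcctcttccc
Oas1a: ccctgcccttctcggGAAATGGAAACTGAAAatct
Oas3: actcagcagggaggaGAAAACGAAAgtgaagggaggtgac

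The matches began at −104 and −85 from the start site in Ifit1, at −156 and −122 in Ifit3, at −20 and −14 in Oas1a and at −75 in Oas3. In Ifit1 and Ifit3 the core reads on the opposite strand (TTTC, 2 bases, TTTC). The windows of Ifit2, Oasl1 and Oasl2 held no match to these letters. The gamma-activated core was in Oas1a at −98 and in Ifit2 at −241, and in 8.3% of all windows.

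Library totals ran from 21375805 to 32526751 counts, so 3 counts were worth 0.0927 to 0.154 CPM (read counts divided by library size, which was adjusted by edgeR's TMM method). Kdm1a was at 61.2 to 71.3 CPM in the 6 LSD1WT libraries and 15.6 to 24.3 CPM in the 6 LSD1cKO libraries. Both femur LSD1WT replicate 2 libraries stood apart. Their 12 osteoclast markers summed to 658 CPM (ligated) and 620 CPM (unligated), against 12831 to 42768 CPM in the other 10 libraries, and the 8 macrophage markers to 12253 and 9608 CPM against 1615 to 4501 CPM. The labels give these 2 cultures the same M-CSF and RANKL as the others, and whether they differed in handling is not given in the sources used here. Mandible LSD1WT replicate 3 has a title that says mandible and a library name that says femur. It was taken as mandible, and its counts were nearer those of mandible LSD1WT replicate 1 (chi-square over degrees of freedom 3.10) than replicates were to each other in any other pair (15.1 to 708). Values with this pair summed into 1, and with the library taken as femur, are given where they move a count. All 10 members were among the 15425 genes tested.

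The antiviral effectors were higher in LSD1cKO cells. The LSD1cKO mean of all 10 lay above that of LSD1WT in each of the 3 cultures, with median log2 fold changes of 2.56 (mandible), 2.12 (ligated femur) and 1.87 (unligated femur), beside medians over all genes tested of 0, -0.12 and -0.05. Over the 3 cultures, in a model with culture and genotype as terms and 6 libraries of each genotype, 7 of the 10 rose at 0.05 after Benjamini-Hochberg adjustment (quasi-likelihood test of edgeR), where 3% of all genes were called higher. These 7 were Ifit1, Ifit2, Ifit3, Oas1a, Oas3, Oasl1 and Oasl2, and their median with the other 3 members was 2.17 against -0.06 for all genes. Mx1, Mx2 and Oas2 did not pass, with log2 fold changes of 1.83, 1.76 and 1.89. Without both femur LSD1WT replicate 2 libraries all 10 were called, with a median of 3.05 and 14.4% of genes called higher. Without both replicate 1 libraries 6 were called, with a median of 1.87. With the mouse as a random block in limma voom 3 were called. DESeq2 called 10. The count also fell to 3 without mandible LSD1WT replicate 1, mandible LSD1WT replicate 3, mandible LSD1cKO replicate 2, ligated femur LSD1cKO replicate 2, unligated femur LSD1WT replicate 1 or unligated femur LSD1cKO replicate 2, and to 4 without ligated femur LSD1cKO replicate 1. It was 3 with both mandible LSD1WT libraries summed into 1 and 1 with the library of conflicting labels taken as ligated femur. The share of all genes called higher is not given here for the alternatives other than that without both femur LSD1WT replicate 2 libraries. The counts called in these other alternatives describe how far the calls moved and show nothing particular to the members. In the edgeR model of all 12 libraries the osteoclast markers had 0 of 12 called, with 0 at an unadjusted p under 0.05. Without both femur LSD1WT replicate 2 libraries 11 of 12 were called lower in LSD1cKO and 4 of 8 macrophage markers higher. The share of all genes called lower in that fit is not given here. Of the macrophage markers 0 of 8 were called with all libraries, and 1 was lower at that unadjusted p. The part of either list in the rise of the antiviral effectors was not tested. In these bulk libraries a change in the share of a cell type and a change of RNA per cell cannot be told apart.

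**Figure D1:**
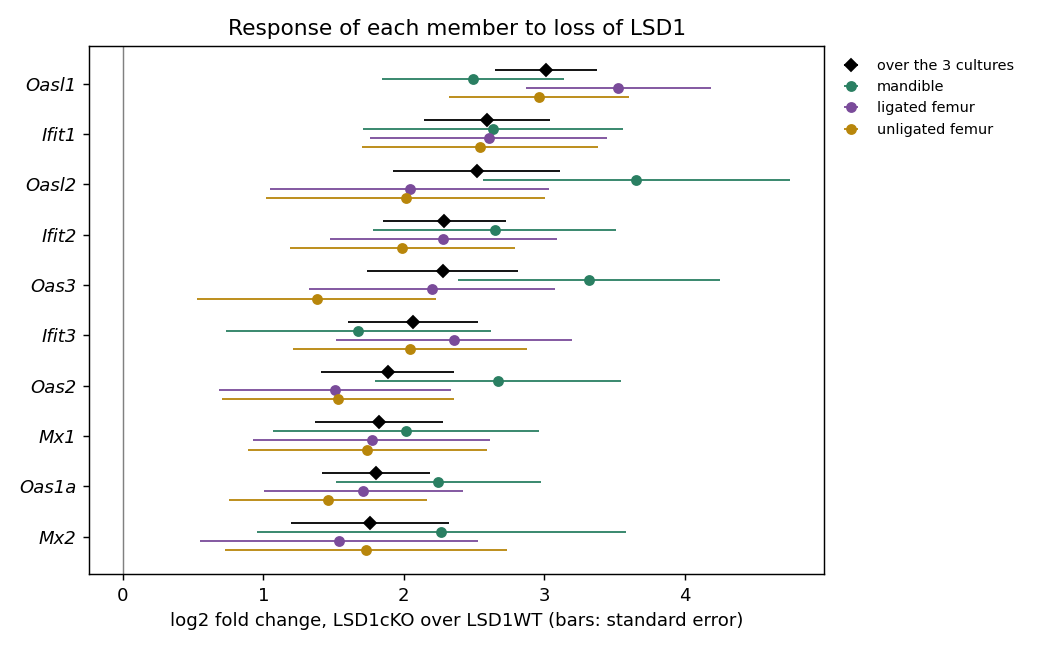
Log2 fold change of each member in LSD1cKO against LSD1WT (horizontal axis) with its standard error, over the 3 cultures together (black, 6 libraries per genotype) and in each culture (colours, 2 libraries per genotype), ordered by the value over the 3 cultures. All values lie above 0, from 1.38 for Oas3 in the unligated femur to 3.66 for Oasl2 in the mandible, and Oasl1 stands highest over the 3 cultures at 3.01.

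All 3 IFIT genes rose over the 3 cultures, with a median log2 fold change of 2.29. The call was lost for Ifit2 in limma voom blocked on the mouse (adjusted p 0.0531) and for Ifit3 in edgeR with the replicate block (adjusted p 0.0582). Ifit1 (ENSMUSG00000034459) measured 0.490 and 0.660 CPM in mandible LSD1WT and 1.82 and 5.38 CPM in mandible LSD1cKO. Ifit1 gave 7.11 and 53.8 CPM in ligated femur LSD1WT and 159 and 211 CPM in ligated femur LSD1cKO. For Ifit1 the unligated femur gave 17.1 and 11.1 CPM in LSD1WT and 95.2 and 68.7 CPM in LSD1cKO. Both LSD1cKO libraries were above both LSD1WT libraries in each culture, and every femur value was above every mandible value. Ifit1 had a log2 fold change of 2.59 (standard error 0.45) over the 3 cultures, with an adjusted p of 0.0114 (edgeR's quasi-likelihood test). Ifit1 by culture had values of 2.63 (mandible, standard error 0.92), 2.60 (ligated femur, 0.84) and 2.54 (unligated femur, 0.84). Ifit2 (ENSMUSG00000045932) measured 0.979 and 1.25 CPM in mandible LSD1WT and 4.02 and 9.98 CPM in mandible LSD1cKO. Ifit2 gave 16.9 and 120.4 CPM in ligated femur LSD1WT and 318 and 349 CPM in ligated femur LSD1cKO. For Ifit2 the unligated femur gave 30.9 and 37.1 CPM in LSD1WT and 181 and 89.1 CPM in LSD1cKO. The genotypes of Ifit2 did not overlap in any culture, and the unligated femur LSD1cKO libraries were the most unequal femur LSD1cKO pair of the IFIT genes. Ifit2 had a log2 fold change of 2.29 (standard error 0.44) over the 3 cultures, with an adjusted p of 0.0181 (edgeR's quasi-likelihood test). Ifit2 by culture had values of 2.65 (mandible, standard error 0.86), 2.28 (ligated femur, 0.81) and 1.99 (unligated femur, 0.80). Ifit3 (ENSMUSG00000074896) measured 0.449 and 0.514 CPM in mandible LSD1WT and 0.584 and 2.50 CPM in mandible LSD1cKO. Ifit3 gave 7.08 and 48.3 CPM in ligated femur LSD1WT and 129.8 and 153 CPM in ligated femur LSD1cKO. For Ifit3 the unligated femur gave 15.3 and 12.7 CPM in LSD1WT and 69.5 and 46.3 CPM in LSD1cKO. In the mandible the lower Ifit3 LSD1cKO library was close to the LSD1WT pair, with 17 counts against 11 and 14, and LSD1cKO replicate 2 held 81 counts. Ifit3 had a log2 fold change of 2.07 (standard error 0.46) over the 3 cultures, with an adjusted p of 0.0357 (edgeR's quasi-likelihood test). Ifit3 by culture had values of 1.68 (mandible, standard error 0.94), 2.35 (ligated femur, 0.84) and 2.04 (unligated femur, 0.83).

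The MX genes had 0 of 2 called over the 3 cultures, although both were under 0.05 before adjustment (edgeR's quasi-likelihood test). DESeq2 called 2 of 2 and limma voom, blocked on the mouse, 0. The share of all genes called by either alternative is not given here. Mx1 (ENSMUSG00000000386) measured 0.326 and 0.660 CPM in mandible LSD1WT and 1.44 and 2.60 CPM in mandible LSD1cKO. Mx1 gave 4.59 and 41.6 CPM in ligated femur LSD1WT and 77.3 and 79.9 CPM in ligated femur LSD1cKO. For Mx1 the unligated femur gave 10.3 and 8.57 CPM in LSD1WT and 19.8 and 43.4 CPM in LSD1cKO. The genotypes of Mx1 did not overlap within a culture. Mx1 had a log2 fold change of 1.83 (standard error 0.46) over the 3 cultures, with an adjusted p of 0.0582 (edgeR's quasi-likelihood test). Mx1 by culture had values of 2.02 (mandible, standard error 0.95), 1.77 (ligated femur, 0.85) and 1.74 (unligated femur, 0.85). Mx2 (ENSMUSG00000023341) measured 0.0816 and 0.110 CPM in mandible LSD1WT and 0.309 and 0.649 CPM in mandible LSD1cKO. Mx2 gave 1.03 and 14.2 CPM in ligated femur LSD1WT and 19.0 and 24.9 CPM in ligated femur LSD1cKO. For Mx2 the unligated femur gave 2.02 and 4.72 CPM in LSD1WT and 6.45 and 15.9 CPM in LSD1cKO. Mandible LSD1WT held 2 and 3 Mx2 counts and LSD1cKO 9 and 21 counts, a ratio of 5.05 with an exact 95% interval of 1.94 to 16.7 that covers counting error only. Mx2 had the largest gap within a pair of LSD1WT libraries, 13.7-fold in the ligated femur. Mx2 had a log2 fold change of 1.76 (standard error 0.56) over the 3 cultures, with an adjusted p of 0.139 (edgeR's quasi-likelihood test). Mx2 by culture had values of 2.27 (mandible, standard error 1.31), 1.54 (ligated femur, 0.99) and 1.73 (unligated femur, 1.00).

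Of the OAS synthetases Oas1a and Oas3 rose over the 3 cultures and Oas2 did not pass. In limma voom blocked on the mouse 0 of the 3 were called, with adjusted p of 0.0673 (Oas1a), 0.0662 (Oas3) and 0.153 (Oas2), while edgeR with the replicate block called Oas2 too (adjusted p 0.0259). Oas1a (ENSMUSG00000052776) measured 6.98 and 5.72 CPM in mandible LSD1WT and 20.9 and 39.4 CPM in mandible LSD1cKO. Oas1a gave 17.3 and 85.6 CPM in ligated femur LSD1WT and 136 and 200.2 CPM in ligated femur LSD1cKO. For Oas1a the unligated femur gave 32.2 and 62.9 CPM in LSD1WT and 91.2 and 171 CPM in LSD1cKO. No Oas1a value of LSD1cKO was at or below an LSD1WT value of the same culture. Oas1a had a log2 fold change of 1.80 (standard error 0.39) over the 3 cultures, with an adjusted p of 0.0296 (edgeR's quasi-likelihood test). Oas1a by culture had values of 2.25 (mandible, standard error 0.73), 1.71 (ligated femur, 0.71) and 1.46 (unligated femur, 0.70). Oas2 (ENSMUSG00000032690) measured 3.02 and 2.75 CPM in mandible LSD1WT and 11.5 and 25.2 CPM in mandible LSD1cKO. Oas2 gave 16.9 and 92.6 CPM in ligated femur LSD1WT and 141 and 171 CPM in ligated femur LSD1cKO. For Oas2 the unligated femur gave 38.3 and 64.0 CPM in LSD1WT and 61.7 and 234 CPM in LSD1cKO. Oas2 was the only member whose genotypes overlapped, in the unligated femur, where LSD1cKO replicate 1 lay between the LSD1WT libraries. Oas2 had a log2 fold change of 1.89 (standard error 0.47) over the 3 cultures, with an adjusted p of 0.0585 (edgeR's quasi-likelihood test). Oas2 by culture had values of 2.67 (mandible, standard error 0.87), 1.51 (ligated femur, 0.82) and 1.53 (unligated femur, 0.82). Oas3 (ENSMUSG00000032661) measured 2.24 and 3.19 CPM in mandible LSD1WT and 12.4 and 42.1 CPM in mandible LSD1cKO. Oas3 gave 17.5 and 83.1 CPM in ligated femur LSD1WT and 203 and 259 CPM in ligated femur LSD1cKO. For Oas3 the unligated femur gave 29.0 and 116 CPM in LSD1WT and 190.0 and 188 CPM in LSD1cKO. The genotypes of Oas3 were separate in every culture, and its unligated femur LSD1WT replicates were 4.01-fold apart. Oas3 had a log2 fold change of 2.28 (standard error 0.53) over the 3 cultures, with an adjusted p of 0.0454 (edgeR's quasi-likelihood test). Oas3 by culture had values of 3.32 (mandible, standard error 0.93), 2.20 (ligated femur, 0.88) and 1.38 (unligated femur, 0.85).

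Both OASL genes rose over the 3 cultures, and their log2 fold changes were the highest of the 10 in the femur (Oasl1) and in the mandible (Oasl2). Oasl2 was not called in limma voom blocked on the mouse (adjusted p 0.0707). Oasl1 (ENSMUSG00000041827) measured 1.43 and 1.14 CPM in mandible LSD1WT and 2.89 and 11.6 CPM in mandible LSD1cKO. Oasl1 gave 3.72 and 7.49 CPM in ligated femur LSD1WT and 48.2 and 80.7 CPM in ligated femur LSD1cKO. For Oasl1 the unligated femur gave 6.49 and 5.14 CPM in LSD1WT and 38.9 and 51.7 CPM in LSD1cKO. Its LSD1WT values were at most 7.49 CPM in all 6 libraries, and its ligated femur LSD1WT replicates were the closest of the 10 members there, 2.01-fold apart against 4.74-fold to 13.7-fold for the others. Oasl1 had a log2 fold change of 3.01 (standard error 0.36) over the 3 cultures, with an adjusted p of 0.00246 (edgeR's quasi-likelihood test). Oasl1 by culture had values of 2.49 (mandible, standard error 0.65), 3.53 (ligated femur, 0.66) and 2.96 (unligated femur, 0.64). Oasl2 (ENSMUSG00000029561) measured 1.06 and 1.65 CPM in mandible LSD1WT and 6.22 and 28.1 CPM in mandible LSD1cKO. Oasl2 gave 14.5 and 122 CPM in ligated femur LSD1WT and 255 and 307 CPM in ligated femur LSD1cKO. For Oasl2 the unligated femur gave 28.4 and 79.1 CPM in LSD1WT and 170.5 and 264 CPM in LSD1cKO. The genotypes of Oasl2 did not overlap in any culture, and its mandible LSD1cKO libraries were 4.52-fold apart. Oasl2 had a log2 fold change of 2.52 (standard error 0.59) over the 3 cultures, with an adjusted p of 0.0453 (edgeR's quasi-likelihood test). Oasl2 by culture had values of 3.66 (mandible, standard error 1.10), 2.04 (ligated femur, 0.99) and 2.01 (unligated femur, 0.99).

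**Figure D2:**
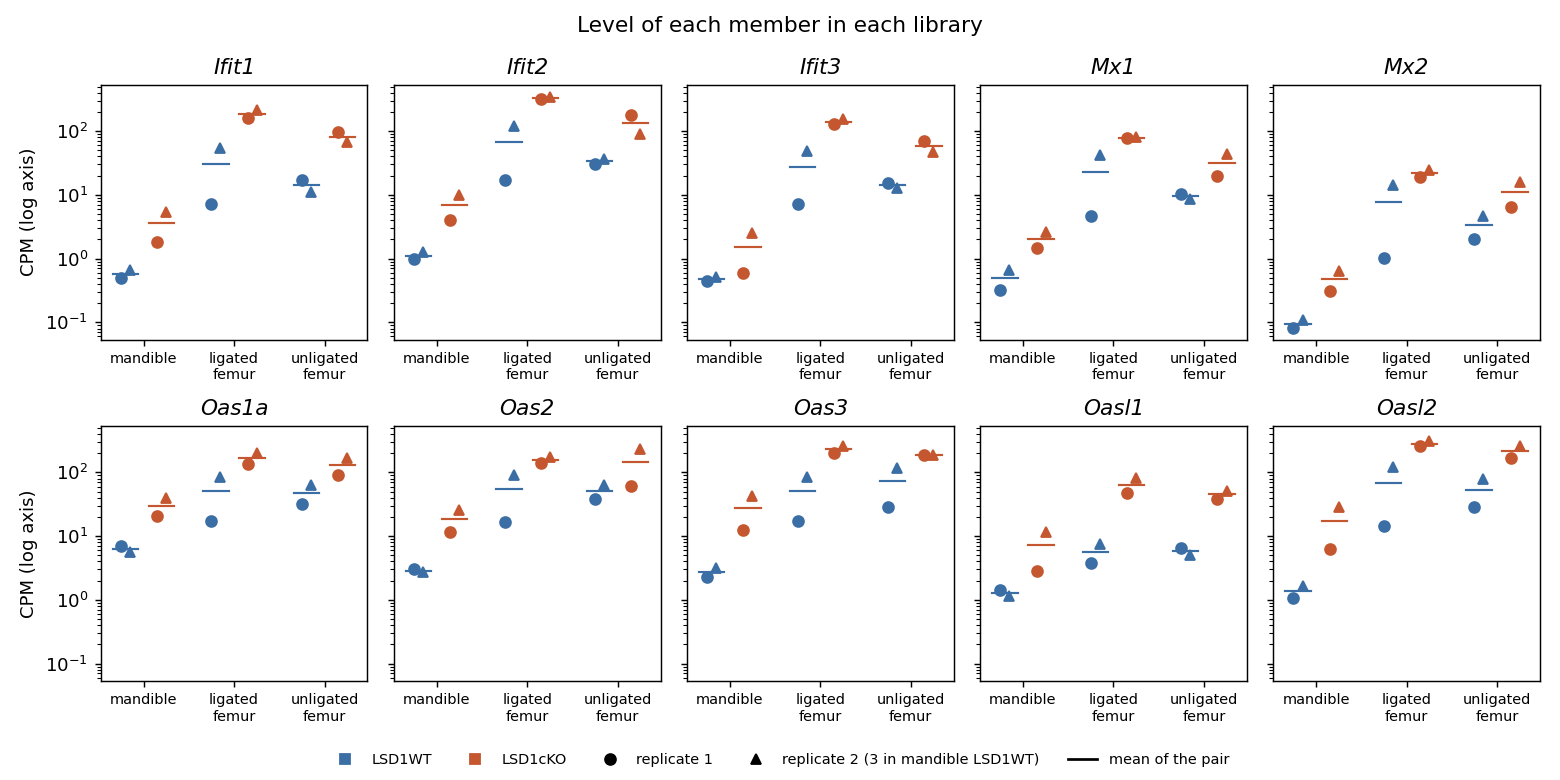
CPM of each member (log axis) in the 12 libraries by culture, with LSD1WT in blue, LSD1cKO in orange, circles for replicate 1, triangles for replicate 2 (replicate 3 in mandible LSD1WT) and a line at the mean of each pair. Within each genotype the mandible values sit below those of the ligated femur in every panel, and ligated femur LSD1WT replicate 2 sits far above replicate 1 in each panel but that of Oasl1, where the pair is 2.01-fold apart.

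Within a single culture no member passed the threshold. In the mandible 0 of 10 were under 0.05 after adjustment and 7 before it (edgeR's quasi-likelihood test), where 0% of genes were called higher and 3.81% were higher at that unadjusted p. In the ligated femur these counts were 0 and 6 of 10 beside 0% and 3.91%, and in the unligated femur 0 and 4 beside 0% and 3.61%. DESeq2 called 3, 1 and 1 members in the same order, where it called 0.914%, 1.24% and 0.805% of genes higher, and limma voom blocked on the mouse 0 in each. All 10 were higher without overlap between the genotypes in the mandible, beside 34.1% of genes, 10 in the ligated femur beside 14.8%, and 9 in the unligated femur beside 9.82%. A fit of the 4 mandible libraries alone, whose spread comes from these libraries only, called 8 of 9 members tested, where 19.2% of genes were called higher. Part of that spread comes from the mandible LSD1WT pair, whose counts were unusually close (chi-square over degrees of freedom 3.10). The pair holds the library of conflicting labels, and the mandible fit was not repeated with the pair summed. The same kind of fit called 0 of 10 in each femoral culture. The mandible values leaned on LSD1cKO replicate 2, and the median was 1.70 without it and 3.16 without replicate 1.

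The member with the least response differed between cultures. Over the 3 cultures the order from least to most was Mx2, Oas1a, Mx1, Oas2, Ifit3, Oas3, Ifit2, Oasl2, Ifit1 and Oasl1, and neighbours in this order differed by less than the larger of their standard errors. Mx2 was least in 14 of 24 fits that hold all 10 members (the one reported and its alternatives) and ranged from least to rank 8, Oas1a was among the least 3 in 23 fits, and Oasl1 had the most response in 22. In the mandible Ifit3 had the least, 1.68 (standard error 0.94), in all 24 fits, and Oasl2 the most, 3.66 (standard error 1.10), in all 24. Without LSD1cKO replicate 2 the mandible value of Ifit3 was 0.29 (standard error 1.03). In the ligated femur Oas2 had the least, 1.51 (standard error 0.82), in 22 of 25 fits and Oasl1 the most, 3.53 (standard error 0.66), in 23. In the unligated femur Oas3 had the least, 1.38 (standard error 0.85), in 20 of 25 fits, with Oas1a at 1.46 and Oas2 at 1.53 beside it, and Oasl1 again had the most, 2.96 (standard error 0.64). The fits share libraries, so these counts describe how far the order moved and are not a test.

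Taking each member against the mean of the other 9 within the same library removes what moves all 10 together. On this log2 scale Ifit3 was at -1.20 and -1.12 in mandible LSD1WT and at -2.60 and -2.02 in LSD1cKO, a difference of -1.15 between means with no overlap. Mx2 had a difference of -0.71 between means there, but its LSD1WT libraries held 2 and 3 counts. The prior count of 2 used for this scale lifts values from so few counts. The Mx2 difference cannot be told apart from that lift. Oasl2 lay higher in mandible LSD1cKO, at 1.02 to 1.82 against 0.12 to 0.53, as did Oas3, at 2.11 to 2.46 against 1.26 to 1.55, and Ifit2, by 0.20 between means. In the ligated femur Oas2 was at 0.96 to 1.18 in LSD1WT and 0.24 to 0.30 in LSD1cKO, and Oas1a at 0.84 to 1.21 and 0.25 to 0.49, both lower without overlap, while Ifit1 and Ifit3 were higher without overlap, by 0.59 and 0.26 between means. Oasl1 was at -2.38 to -1.44 in unligated femur LSD1WT and -0.80 to -0.79 in LSD1cKO, while in the ligated femur its range of -3.05 to -1.23 in LSD1WT overlapped that of -1.42 to -0.97 in LSD1cKO. With 2 libraries a group these are descriptions with no test.

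In the ligated femur the order depended on which LSD1WT library served as the control. Against replicate 1 alone the response ran from 3.20 for Oas2 and 3.28 for Oas1a to 4.70 for Ifit1, with a median of 4.19. Against replicate 2 alone, the library with few osteoclast transcripts, it ran from 0.72 for Mx2 and 0.84 for Oas2 to 3.19 for Oasl1, with a median of 1.42. Mx2 thus stood at 4.40 on the log2 scale with one control and 0.72 with the other, and Oasl1 at 4.11 and 3.19. Oas2 was among the 2 least with either. The lone control is assumed in these fits to vary like the other groups, and 0 members were called in either. Without both femur LSD1WT replicate 2 libraries 9 of the 10 were called in the ligated femur, where 6.89% of genes were called higher, and without both replicate 1 libraries 2 were, beside 13.7% of genes.

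**Figure D3:**
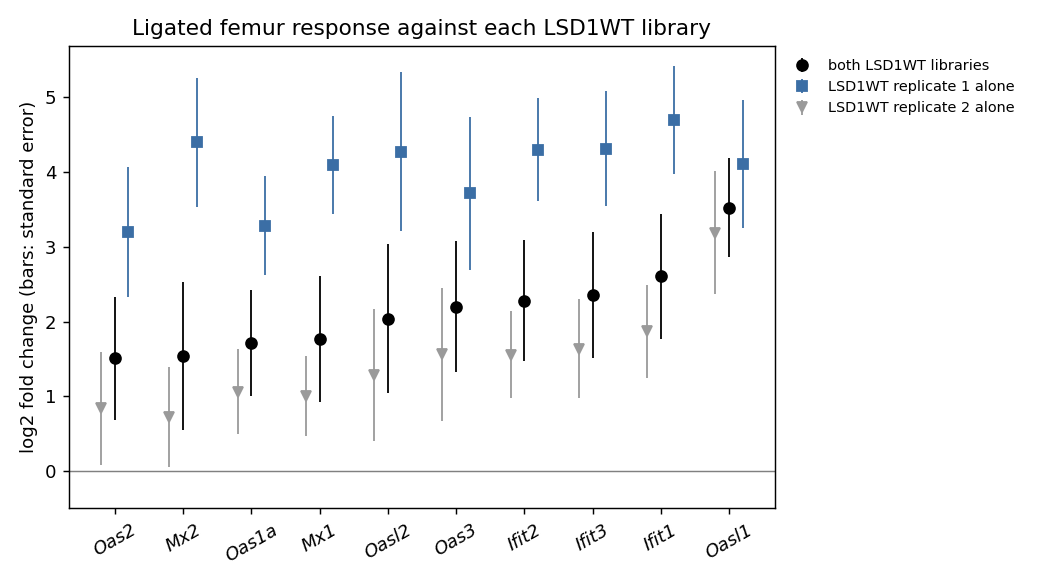
Log2 fold change of each member in ligated femur LSD1cKO with its standard error, against both LSD1WT libraries (black), against replicate 1 alone (blue squares) and against replicate 2 alone (grey triangles), ordered by the value against both. The blue points run from 3.20 to 4.70 and the grey from 0.72 to 3.19, and the gap is widest for Mx2 and narrowest for Oasl1.

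Basal level was compared between the members per kilobase of exon, with lengths from GENCODE vM21 matched by Ensembl identifier. Oas1a was the highest of the 10 in LSD1WT cells of each culture, at 3.37 ± 0.470 CPM per kilobase in the mandible, 27.3 ± 25.6 in ligated femur and 25.2 ± 11.5 in unligated femur (SD, n = 2). Mx2 was the lowest, at 0.0265 ± 0.00557, 2.103 ± 2.57 and 0.933 ± 0.528 CPM per kilobase (SD, n = 2). How reads that also fit a near-identical copy were counted is not given, so the levels of Oas1a and Ifit3 are uncertain. From the lowest up, the mandible order was Mx2, Mx1, Oasl2, Ifit1, Ifit3, Ifit2, Oas3, Oasl1, Oas2 and Oas1a. Of these neighbours, Oasl2 and Ifit1, at 0.213 and 0.217 CPM per kilobase, and Ifit3 and Ifit2, at 0.276 and 0.284, differed by less than the larger SD of the 2. The ligated femur order was Mx2, Oasl1, Mx1, Oas3, Oasl2, Ifit1, Oas2, Ifit3, Ifit2 and Oas1a, and the unligated femur order Mx2, Oasl1, Mx1, Ifit1, Ifit3, Oasl2, Ifit2, Oas3, Oas2 and Oas1a. In the ligated femur no neighbours differed by more than the larger SD, and in the unligated femur the run from Ifit3 to Oas2 did not, nor did Oasl1 and Mx1. Oasl1 was the member whose place moved most between sites, at rank 8 from the lowest in the mandible and rank 2 in both femoral cultures.

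Per kilobase, the level in LSD1WT had almost no rank relation with the response in the mandible and the ligated femur, and a negative one in the unligated femur, and each of these values moved with the libraries used. Over the 10 members, Spearman's rho between the mean LSD1WT log2 CPM per kilobase and the log2 fold change was 0.067 in the mandible (Pearson's r 0.0041), -0.018 for the ligated femur (r -0.16) and -0.52 for the unligated femur (r -0.36). These are descriptions over 10 genes that share the same libraries, and the fold change holds the LSD1WT libraries that give the level. With the LSD1WT level of another culture, which shares no library with the fold change, rho was -0.042 and 0.22 for the mandible response, 0.030 and -0.27 for the ligated femur and -0.24 and -0.14 for the unligated femur. Leaving out mandible LSD1WT replicate 3 gave -0.38 in the mandible and leaving out replicate 1 gave 0.26. The unligated femur value was -0.15 with LSD1WT replicate 1 alone as the level and -0.60 with replicate 2 alone. In the mandible it was 0.50 when the level was not divided by gene length. Members high in LSD1WT were also high in LSD1cKO, with r between both levels of 0.94 (mandible), 0.92 (ligated femur) and 0.93 (unligated femur) over the 10 members. Mx2 and Oas1a, lowest and highest in level, had mandible log2 fold changes of 2.27 and 2.25, ligated femur values of 1.54 and 1.71, and unligated femur values of 1.73 and 1.46.

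**Figure D4:**
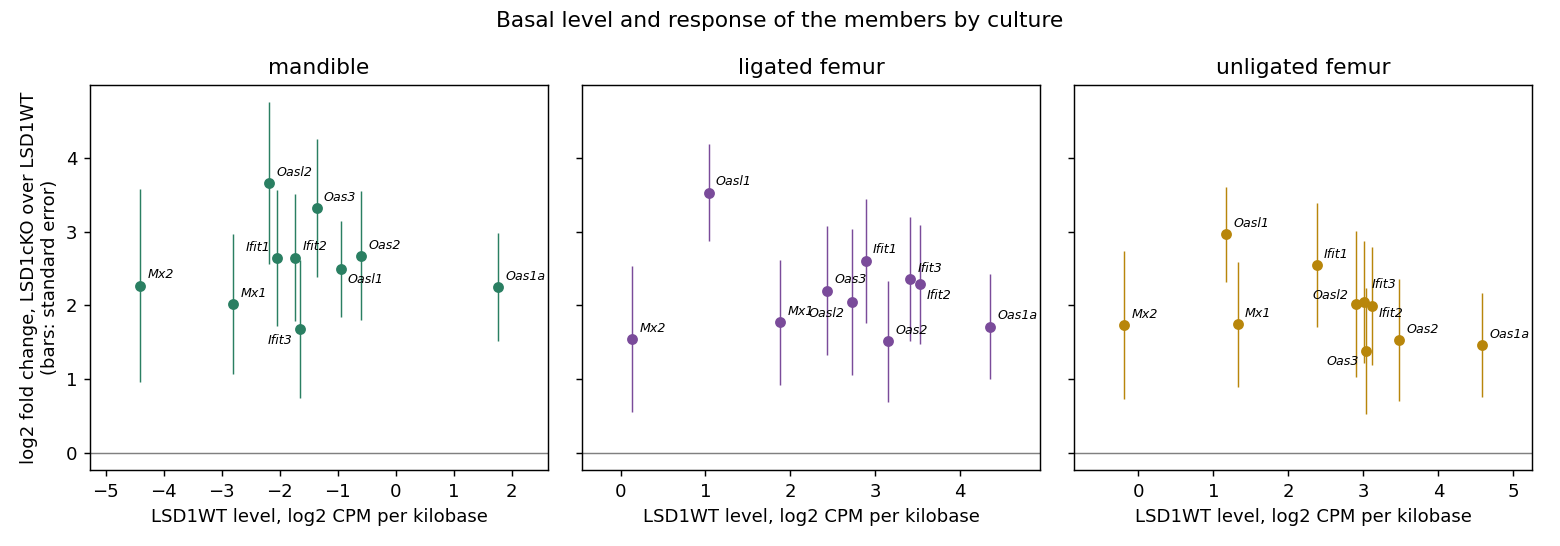
Log2 fold change of each member in LSD1cKO against LSD1WT with its standard error (vertical axis), against its mean LSD1WT level in log2 CPM per kilobase (horizontal axis, of a different range in each panel), by culture. Mx2 lies at the left and Oas1a at the right of each panel with responses of 2.27 and 2.25 in the mandible, and Oasl1 in the 2 femoral panels combines a low level with the highest response.

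The mandible held less of every member than the ligated femur. In LSD1WT all 10 members were lower in the mandible than in the ligated femur, with a median log2 difference of -5.58 and a range from -6.23 for Mx2 to -2.12 for Oasl1. In LSD1cKO the median was -4.66 and the range -6.51 for Ifit3 to -2.48 for Oas1a. None passed at an adjusted p under 0.05 (lowest adjusted p 0.167 in LSD1WT and 0.0919 in LSD1cKO, edgeR's quasi-likelihood test), where 0% and 0% of genes were called lower, and all 10 had an unadjusted p under 0.05 in both genotypes, beside 14.7% and 6.81% of genes lower. DESeq2 called all 10 in both, where it called 7.6% of genes lower in LSD1WT and 3.35% in LSD1cKO, and limma voom blocked on the mouse called 0 in both. Mandible and femur libraries did not overlap for any member in LSD1WT, beside 31.5% of genes lower without overlap, or in LSD1cKO, beside 35%. The LSD1WT difference leaned on ligated femur replicate 2, and its median was -3.28 without that library, where the ligated femur genotype effect had a median of 4.19, and -6.39 without replicate 1. Leaving out replicate 1 also moved the calls, but it leaves a lone library in that group. The share of all genes called in that fit is not given here. With the library of conflicting labels as femur the LSD1WT median was -5.33. Within single mice the direction was the same. The femur level was 2.47 to 17.2 times the mandible level over the members in LSD1WT mouse 1L, 6.52 to 222 times in LSD1cKO mouse 1L and 5.09 to 61.2 times in LSD1cKO mouse 2L. In that order the medians were 13.2, 47.3 and 20.9 times. With the mouse as a block all 10 were called in both genotypes, with medians of -3.64 and -4.85, where 4.85% and 19.6% of genes were called lower, but that fit leaves 1 residual degree of freedom and its LSD1WT value comes from mouse 1L. The IFIT and MX genes and Oasl2 had the widest gap, from 12.7 to 17.2 times in LSD1WT mouse 1L, and Oas1a and Oasl1 the narrowest, 2.47 and 2.60 times. Oas1a was also the narrowest in LSD1cKO mice 1L and 2L, at 6.52 and 5.09 times. Oasl1, at 16.7 and 6.96 times, lay above Oas2 and Oas3 in both of those mice. Macrophage markers moved with the site. All 8 were lower in the mandible in LSD1WT (median log2 difference -5.02, 7 at an unadjusted p under 0.05) and in LSD1cKO (median -2.61, 4 at that p). None was called in either. Their summed level was 1615 to 2083 CPM in the 4 mandible libraries against 3187 to 12253 CPM in the 4 of the ligated femur. The 12253 CPM belonged to LSD1WT replicate 2. In LSD1WT mouse 1L the sum was 2064 CPM in the mandible and 3471 CPM in the femur. The LSD1WT median of this list without replicate 2 is not given here. The 12 osteoclast markers had medians of 0.70 and 0.02, with 0 at that p. The part of either list in the site difference was not tested.

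For Ifit1, Ifit2, Ifit3, Mx1 and Mx2 the mandible did not reach the femoral LSD1WT level even without LSD1. Both mandible LSD1cKO libraries were below all 4 femur LSD1WT libraries for these 5 members, beside 17.6% of genes lower in the same way. For Oas1a, Oas2, Oas3, Oasl1 and Oasl2 they overlapped. Mandible LSD1cKO Oasl1, at 2.89 and 11.6 CPM, spanned the femur LSD1WT range of 3.72 to 7.49 CPM.

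Whether the LSD1cKO effect itself differed between sites was tested as an interaction. The median difference, mandible minus ligated femur, was 0.45 with 8 members above 0 and 2 below, from -1.03 for Oasl1 to 1.61 for Oasl2, and 0 were under 0.05 before or after adjustment (edgeR's quasi-likelihood test), as also by DESeq2 and by limma voom blocked on the mouse. The sign of the median turned with 1 library. It was -1.63 without ligated femur LSD1WT replicate 2, -0.18 without mandible LSD1cKO replicate 2 and 1.17 without ligated femur LSD1WT replicate 1. With the mouse as a block, and again 1 residual degree of freedom, the median was -1.60 and 3 members (Ifit3, Oas1a and Oasl1) were called with the smaller effect in the mandible, where 1.68% of genes were called lower. Between ligated and unligated femur the median difference of the LSD1cKO effect was 0.16, and 0 members were called (0 at an unadjusted p under 0.05). The ligature itself came with a median log2 difference of 0.66 in LSD1WT and 0.74 in LSD1cKO, with 0 members called in either (0 at an unadjusted p under 0.05), and the LSD1WT value was -1.25 without ligated femur replicate 2.

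Upstream of the members, the interferon transcripts themselves were near 0. Of 20 interferon genes 0 passed the expression filter, and 18 had no count in any of the 12 libraries. Ifnb1, the interferon made first by many cells, had at most 6 counts (0.263 CPM) and no count in 7 libraries, and Ifnk had 1 count in 1 library. Of 6 interferon regulatory factors Irf7, which amplifies interferon production, rose by 2.71 (adjusted p 0.00662), and of 4 brakes on the pathway Usp18 rose by 2.74 (adjusted p 0.00646) and Socs1 by 1.17 (adjusted p 0.0199), all from edgeR's quasi-likelihood test. Without both femur LSD1WT replicate 2 libraries 4 of 6 regulatory factors and 3 of 4 brakes were called higher, where 14.4% of genes were. In that fit 1 factor was called lower, and the share of all genes called lower is not given here. With all libraries 3 of the 6 factors had a lower mean in LSD1cKO, 1 of them at an unadjusted p under 0.05 (Irf3, log2 fold change -0.22).

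Other antiviral interferon-stimulated genes moved in the same direction. Of 15 tested, 10 rose over the 3 cultures and 0 fell, where 3% of all genes were called higher. As log2 fold changes, these 10 included Isg15, a ubiquitin-like modifier (2.65), Ifi44 (2.95) and Zbp1, a sensor of Z-form nucleic acid (2.57). Rsad2 or viperin (2.24) and the RNA helicase Rigi (1.88) were also among them. All 15 were called without both femur LSD1WT replicate 2 libraries, where 14.4% of genes were called higher. Of 6 tested paralogs of the members, 4 rose with all libraries, beside the same 3% of genes. They were Ifit1bl1 (2.50), Ifit3b (2.18), Oas1b (1.82) and Oas1g (2.75). Ifit3b and Ifit3, and Oas1g and Oas1a, are near-identical copies, and how reads that fit both were counted is not given in the sources used here, so the level of each is uncertain.

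The 10 members kept close together across the 12 libraries. Each correlated with their mean standardized log2 CPM at r of 0.93 (Oasl1) to 0.99 (Oasl2), and the lowest correlation between any pair was 0.87, between Oasl1 and Mx2. The genes outside the list with the pattern most like that mean, by Pearson's r over the 12 libraries, were Phf11b (0.996), Phf11d (0.996), Ddx60 (0.996), Parp9 (0.995), Irf7 (0.995), Gm12250 (0.994), Cmpk2 (0.992), Epsti1 (0.991), Usp18 (0.991) and Rigi (0.991). The site gap and the replicate 2 library enter all of these values, and they are descriptions with no test. Markers of other cell types were low. The 6 plasmacytoid dendritic cell markers summed to 1.86 to 8.07 CPM and the 4 B cell markers to 0.697 to 7.73 CPM over the libraries, the T and NK cell markers to at most 0.403 CPM and the erythroid markers to at most 0.618 CPM. Of 3 B cell markers tested, 2 were higher in LSD1cKO over the 3 cultures at 0.05 before adjustment and 0 after it (edgeR's quasi-likelihood test), and their part in the result was not tested. Of 5 plasmacytoid dendritic cell markers tested 4 were higher, 1 of them at 0.05 before adjustment and 0 after it, and their part was not tested either. The 7 neutrophil markers summed to 88.3 to 301 CPM and the 4 stromal markers to 0.0970 to 40.5 CPM. The stromal sum was highest in mandible LSD1WT, at 39.5 and 40.5 CPM, against 7.97 and 2.72 CPM in mandible LSD1cKO. The 2 stromal markers tested were lower in LSD1cKO over the 3 cultures, with a median log2 fold change of -2.50. Of these 0 were at 0.05 before adjustment (edgeR's quasi-likelihood test), and their part was not tested.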

How the data were processed

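Preosteoclast RNA from 12 libraries of 9 mice was sequenced, and the authors deposited whole-number read counts per gene, with no normalization. Per the submitters' processing notes the tools were FastQC, HISAT2 2.1.0 and featureCounts, with edgeR and genome build GRCm39. Strand and multi-read settings are not given in the sources used here.

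Counts were tested in R 4.3.3 with edgeR 4.0.16 (TMM scaling, filterByExpr, glmQLFit and glmQLFTest, Benjamini-Hochberg adjustment over 15425 genes at 0.05). A model of 6 conditions gave effects within cultures, sites and interactions, and culture plus genotype gave the effect over the 3 cultures. CPM for the relative levels used a prior count of 2. Standard errors came from the fold change and F. Alternatives used DESeq2 1.42.0 and limma 3.58.1. Gene lengths were merged exons of GENCODE vM21 (GRCm38). The edgeR code was also run on simulated counts with less spread than the data and no difference between cultures. That run checks the code and says nothing about these results.

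The members and gene lists were chosen with earlier results of these data known. Genes outside the lists were named as the 10 whose log2 CPM correlated best with the mean of the members. By the labels, 3 mice were sampled at both sites. The deviations of the LSD1cKO pair correlated at 0.026 between sites over the tested genes. The correlation within a mouse that limma estimated was 0.52 in the model of culture and genotype and -0.39 in that of 6 conditions. The edgeR fit of culture and genotype has no term for the mouse, so it treats libraries of the same mouse as separate. That libraries are separate cultures is not stated, so p-values measure the spread between libraries, and counting intervals cover counting error only. Some genes of the pathway are not reported here.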

Additional observations from a re-analysis of the deposited data

How the results depend on the processing

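All members kept a higher value in LSD1cKO and a lower one in the mandible under every alternative run, while the calls moved. The counts called in this section stand without the share of all genes called in each fit. They describe how far the calls moved and show nothing particular to the members. Within cultures, the number of members called in the order mandible, ligated femur, unligated femur was 1, 1 and 1 with no filter beyond 1 count, 3, 1 and 1 by DESeq2, and 5, 2 and 4 without both femur LSD1WT replicate 1 libraries. Without both replicate 2 libraries it was 5, 9 (median 4.28) and 0, and a fit of the mandible conditions alone called 8. Between sites in LSD1WT, 10 were called with no filter, by DESeq2, without both femur LSD1WT replicate 1 libraries and with the replicate block by mouse (median -3.64), and 1 without both replicate 2 libraries (median -3.24). In LSD1cKO 10 were called in each of these settings and with the compared conditions alone. The site interaction had a median of -1.69 without both replicate 2 libraries and of -1.60, with 3 called, in the replicate block by mouse. The ligature difference in LSD1WT had a median of -1.02 without both replicate 2 libraries. Over the 3 cultures, 1 was called with the library of conflicting labels as femur, 3 with the mandible LSD1WT pair summed, and 3 by limma voom. The replicate block on the library numbers called 7 members over the 3 cultures, with a median of 2.24, losing Ifit3 (edgeR adjusted p 0.0582) and gaining Oas2 (0.0259), and changed no call within cultures. That block cannot pair mice between most groups.

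Leaving out 1 library at a time, medians ran from 1.70 to 3.16 for the mandible, 1.42 to 4.19 for the ligated femur and 1.59 to 2.22 for the unligated femur, with 0 called in each. The range was -1.63 to 1.17 for the site interaction, -0.59 to 2.27 for the ligature interaction, -1.25 to 1.47 for ligature in LSD1WT and 0.44 to 1.03 in LSD1cKO, again with 0 called. The site difference ran from -6.39 to -3.28 in LSD1WT with 0 to 10 called and from -5.65 to -4.15 in LSD1cKO with 0 to 9 called. Over the 3 cultures 3 to 10 were called, with medians of 1.94 to 2.60. Spearman's rho between level and response ran from -0.38 to 0.26 for the mandible, -0.21 to 0.055 for the ligated femur and -0.70 to -0.25 for the unligated femur. It was 0.50 in the mandible when not per length, -0.042 and 0.22 there with the level of the ligated and the unligated femur, -0.27 in the ligated femur with the level of the unligated femur, and -0.15 and -0.14 in the unligated femur with LSD1WT replicate 1 alone and with the level of the ligated femur. Of single members over the 3 cultures, 164 values kept their side of the threshold, 16 gained and 50 lost it. The causes were not tested. With 2 libraries a group every value rests on few replicates, and at most 3 Mx2 counts in a mandible LSD1WT library limit its fold change there.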
